A study of Mus musculus with 2 samples.

Results

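The genes described here are 10 immediate early genes, Fos, Fosb, Fosl2, Jun, Junb, Egr1, Atf3, Ier3, Nr4a1 and Myc, in 2 islet graft samples. They were taken by name, as every probe set whose platform annotation gave exactly 1 gene symbol that was on this list, which found 12 probe sets among 45037 and represented 10 of 18193 genes. Islets of wild type C57BL/6 donors, 50 per recipient, had been placed beneath the capsule of the left kidney of the recipients. The grafts were taken at 6 hours. The recipient was a normoglycemic wild type C57BL/6 mouse for 1 sample, and a hyperglycemic mouse heterozygous for Akita, a missense mutation of Ins2 that leaves the recipient short of insulin, for the other, and these are called the WT graft and the Akita graft. Each sample was hybridized to 1 array, so no difference could be tested and no SD between samples could be had. Genotype and blood glucose of the recipient cannot be told apart with these arrays. The paper states male sex for its Akita recipients and gives no sex for the wild type recipient. The number of mice behind a sample is not given in these sources, the ages of the recipients are not given in the labels, and neither array was of islets before transplantation, so a signal gives a level in the graft and not an induction.

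Immediate early genes are transcribed within minutes of a stimulus, such as a growth factor, a cytokine or stress, by factors that already lie in the nucleus, and most of their RNAs and proteins are short-lived. The Fos proteins (Fos, Fosb, Fosl2) pair with the Jun proteins (Jun, Junb) through leucine zippers to form AP-1, a transcription factor that binds TGACTCA, and Atf3 is a stress-induced leucine zipper protein of a related family. Egr1 is a zinc finger factor, Nr4a1 (Nur77) is an orphan nuclear receptor and Myc is a helix-loop-helix leucine zipper factor that pairs with Max and promotes growth. In islets and kidney, Fos, Egr1 and Atf3 are known as early genes of stress and injury. Ier3 encodes a short protein that regulates cell survival and has no known DNA-binding domain, so the list held 9 transcription factors and 1 other immediate early gene. Without Ier3 the median log2 ratio of the list was 0.76, the same to 2 decimals as with it.

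Promoter windows from RefSeq (GRCm38.p6), reaching from 250 bases before the annotated start of transcription to 50 bases after it, were at hand for 8 of the 10 genes, and not for Egr1 and Myc. The 250 bases before the start are shown for Fos, Fosb and Junb, which had the highest ratios between the grafts, and for Nr4a1, which had the lowest. They lie at chr12:85473640-85473889 on the plus strand (Fos), chr7:19310046-19310295 on the minus strand (Fosb), chr8:84978749-84978998 on the minus strand (Junb) and chr15:101266596-101266845 on the plus strand (Nr4a1). Capitals mark the TATA box TATAAA and TGACG, the core of the cAMP response element, read on either strand, so that CGTCA marks it on the other one.
Fos: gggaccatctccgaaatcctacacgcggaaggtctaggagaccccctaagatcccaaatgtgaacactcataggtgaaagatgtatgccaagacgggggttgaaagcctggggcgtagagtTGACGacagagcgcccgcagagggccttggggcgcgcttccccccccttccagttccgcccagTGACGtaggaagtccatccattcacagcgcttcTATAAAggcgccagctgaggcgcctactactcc
Fosb: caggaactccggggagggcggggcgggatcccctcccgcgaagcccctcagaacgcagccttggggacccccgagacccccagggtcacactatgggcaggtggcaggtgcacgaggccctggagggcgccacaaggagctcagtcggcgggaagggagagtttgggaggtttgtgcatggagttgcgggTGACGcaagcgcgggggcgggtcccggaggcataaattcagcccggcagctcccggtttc
Junb: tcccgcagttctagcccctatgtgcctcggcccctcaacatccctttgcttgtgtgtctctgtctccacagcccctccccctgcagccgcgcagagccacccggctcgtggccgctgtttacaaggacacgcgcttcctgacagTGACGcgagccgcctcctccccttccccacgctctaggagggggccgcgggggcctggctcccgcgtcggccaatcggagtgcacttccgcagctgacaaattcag
Nr4a1: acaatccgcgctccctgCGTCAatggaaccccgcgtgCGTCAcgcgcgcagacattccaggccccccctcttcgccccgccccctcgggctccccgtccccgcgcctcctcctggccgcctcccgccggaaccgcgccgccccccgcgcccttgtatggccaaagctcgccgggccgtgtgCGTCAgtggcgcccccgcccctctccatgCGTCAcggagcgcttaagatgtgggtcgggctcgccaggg

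Of the 8 windows, 5 held TGACG (Fos, Fosb, Junb, Atf3 and Nr4a1), against 20.8% of all 32851 promoter windows in the table. Fos held it at 129 and 66 bases before the start, Fosb at 60, Junb at 106 and Atf3 at 7, and Nr4a1 held 4 matches. The GC box GGGCGG was in 7 of the 8 windows, against 35.7% of all windows, and was absent only from that of Junb. TGACG and GGGCGG were added to the search after these promoters had been read. TATAAA, in 13.6% of all windows, was found 33 bases before the start of Fos and at the first transcribed base of Junb. The whole cAMP response element TGACGTCA (1.79% of all windows), the AP-1 site TGACTCA (5.2%) and the CArG box bound by serum response factor (1.63%) were in none of the 8 windows. Every motif was searched on both strands, but variants of these sites and bases outside the windows were not searched. These are matches of letters, not measured binding, and their relation to the ratios was not tested.

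**Figure D1:**
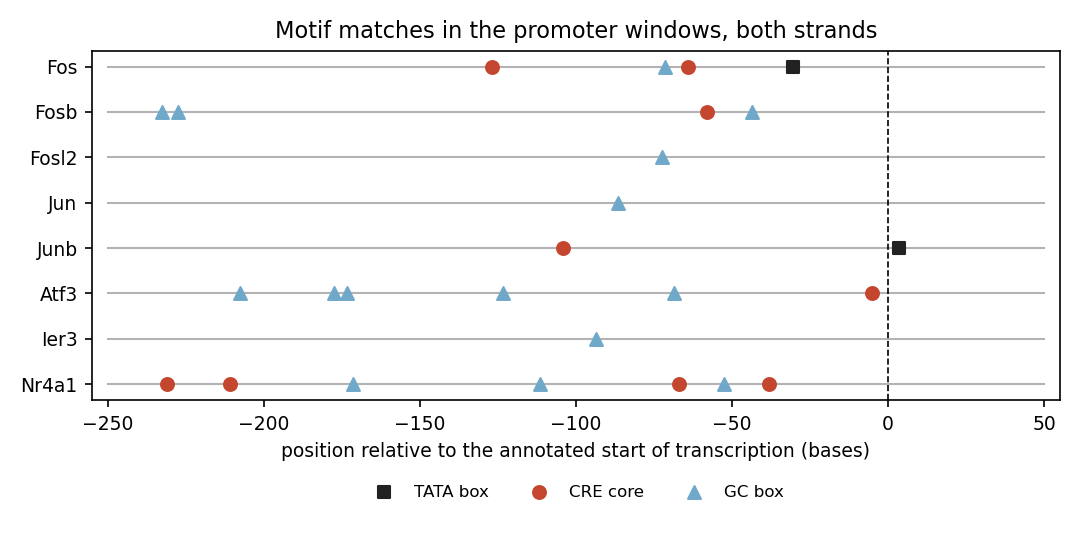
Matches of the TATA box, the core of the cAMP response element (CRE core) and the GC box in 8 promoter windows, by distance in bases from the annotated start of transcription (dashed line), on both strands. Fos, Fosb, Junb, Atf3 and Nr4a1 hold the CRE core, and Nr4a1 holds it 4 times.

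The arrays were compared as deposited, as MAS5 signals on a linear scale, and a ratio is the signal in the Akita graft over that in the WT graft. No detection calls were used, and the median signal of each array, 82.9 (WT graft) and 91.5 (Akita graft), served as a floor. Each gene was read from its brightest probe set, and it counted as measured unless both signals lay under their floors. A signal below its floor was also raised to the floor of its own array, and the ratio was computed again. For a lower signal this makes the ratio a bound, unless the other signal is itself near its floor. All 10 genes were measured, and for 9 of them neither signal was under its floor. Signals of different probe sets are not compared with each other, because probes differ in brightness for the same amount of RNA. As a yardstick, the ratios of 2 probe sets for the same gene differed by an amount that corresponds to 1 SD per probe set of 1.26-fold at signals of 256 to 1024 and of 1.17-fold at 1024 to 4096. This is a technical spread within the arrays and not an error between mice.

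All 10 genes, and all 12 probe sets, had a higher signal in the Akita graft as deposited, but 7 of the 10 ratios fell below 1 when the arrays were scaled on the hybridization controls, 4 when scaled on islet genes and 1 when scaled on the poly-A controls. Among all 12538 measured genes, 44.8% had a higher signal in that graft. Only Fos and Fosb were over 2-fold higher, 2 of 10 genes against 7.56% of all measured genes, and 0 were over 2-fold lower, against 5.54%. With low signals raised to the floors, Fos alone was over 2-fold higher, 1 of 10 against 4.33%. At a limit of 1.5-fold, 7 of 10 were higher, against 13.7%. The median log2 ratio of the 10 genes was 0.76, a 1.70-fold higher signal, whereas that of all measured genes was -0.06. Scaling moved all genes together. The shift of the median log2 ratio of all measured genes was -0.96 for the hybridization controls, -0.65 for islet genes, -0.33 for the poly-A controls and -0.14 for the array medians. Relative to the median of all measured genes, the median of the 10 genes was higher by 0.83 on the log2 scale, which scalings that divide a whole array by 1 number leave as it is by construction. With a floor at the 75th percentile it was higher by 0.68, and 9 of the 10 genes lay above the median of all genes. The 10 ratios lay between the 77.7th and the 99.4th percentile of all measured genes.

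**Figure D2:**
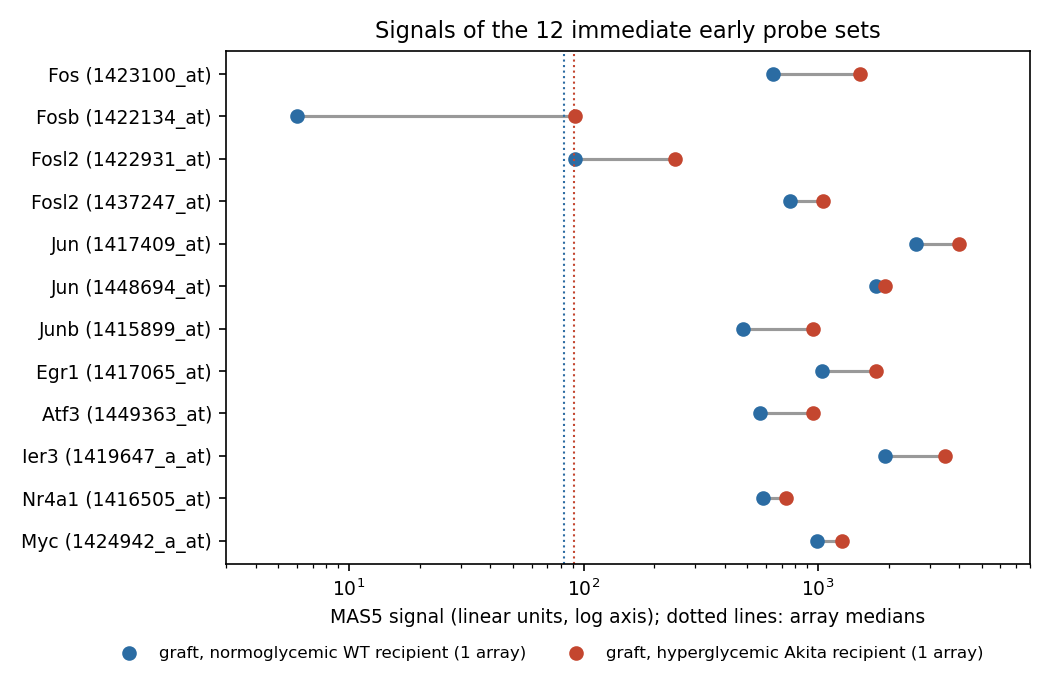
MAS5 signal (log axis) of each of the 12 probe sets in the WT graft (blue) and from the Akita recipient (red), 1 array each, with dotted lines at the array medians. As deposited every red point lies to the right of its blue one (7 of 10 genes turn around under scaling on hybridization controls), and Fosb alone has a point below an array median.

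Other cells of the graft sample moved with this comparison. All 15 measured macrophage and monocyte markers were over 2-fold higher in the Akita graft, against 7.56% of all measured genes. The count was 13 under scaling on the hybridization controls, against 3.07%, and 15 with the floors, against 4.33%. Some of these markers passed the floor only in the Akita graft. The signals of the list summed to 106818 in the Akita and 14221 in the WT graft. The sums are over all 16 genes of the list, none of which was at 0. Lyz2, which encodes lysozyme, had signals of 55987 and 5539, and Cd14, a part of the lipopolysaccharide receptor, 10468 and 1624, in the hyperglycemic and the normoglycemic mouse. The study had picked Cd14 and some other genes of this list on these arrays, so their direction is not independent evidence. Of 6 measured neutrophil markers, 5 were over 2-fold higher, against 7.56% of all measured genes. With the floors 4 were, against 4.33%, since Ltf passed the floor only in the Akita graft. Mpo was lower, at 140 in the WT and 118 in the Akita graft. Of the 10 neutrophil markers with a probe set, 4 were under the floors on both arrays. S100a9 and S100a8, which encode the subunits of calprotectin, had signals of 2536 and 1558 in the WT graft and 10930 and 5481 in the Akita graft. Of the B cell markers, Cd22 alone had both signals above the floors, at 111 and 237, while Ms4a1 (CD20), at 63.3 and 435, passed only through the Akita graft. The islet and proximal tubule lists were mixed. Of 11 measured islet endocrine markers, 7 had a higher and 4 a lower signal in the Akita graft, with a median log2 ratio of 0.65. Ins2 had 68738 and 88302 and Iapp (amylin) 47116 and 74018, whereas Pdx1, a factor of beta cell identity, had 181 and 136. Of 10 proximal tubule markers, 4 had a higher signal, with a median log2 ratio of -0.03, and Kap had 89517 and 128500 while Fbp1, an enzyme of gluconeogenesis, had 71022 and 68762. Islet and kidney markers were thus high in both samples. The 9 measured endothelial markers all had lower signals, such as Flt1 (a VEGF receptor) at 1047 and 915 and Plvap at 1187 and 710. Of 8 measured distal nephron markers, 0 had a higher signal and 2 were over 2-fold lower, against 5.54% of all measured genes. Among them Calb1 and Umod had 20458 and 19842, and 21901 and 14747. The fibroblast markers Dcn and Col1a2 had 451 and 517, and 677 and 204. In a bulk sample fewer cells of a type and less RNA per cell cannot be told apart, and the part of these cells in the ratios of the immediate early genes was not tested. Among control probe sets, the median ratio of the Akita over the WT graft was 1.91 for 18 hybridization controls and 1.25 for 24 poly-A controls, and the 3' over 5' signal of Actb, a sign of RNA quality, was 3.54 in the WT and 3.99 in the Akita graft, and that of Gapdh 1.30 and 1.76.

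Fos, the first partner of Jun in AP-1, had the largest ratio of the 9 genes with no signal under its floor. Its probe set gave a signal of 645 in the WT graft and 1510 in the Akita graft. Both signals were far above the floors, and the ratio was 2.34 (log2 ratio 1.23), the 94.1th percentile of all measured genes. This was 3.67 times the technical SD of the log2 ratio at that signal. The log2 ratio of Fos was above 0 under each of the 7 scalings, at 0.27 with the hybridization controls and 0.58 with islet genes.

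Fosb, a Fos relative that also pairs with Jun proteins, had signals of 6.00 in the normoglycemic and 91.7 in the hyperglycemic mouse. The lower signal lay at the 9.91th percentile of its array and the higher one just at the floor of 91.5. The ratio as deposited was 15.3, but at these signals 1 technical SD of a ratio was 2.90-fold. With the lower signal raised to its floor the ratio was 1.11. The Akita signal was only 1.003 times its own floor, so this 1.11 mostly reflects the gap between the 2 floors. It is not read as a difference. The largest ratio of the list therefore rested on the dimmest probe set.

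Fosl2 (Fra-2), a Fos relative without the activation domain of Fos, was read by a pair of probe sets that disagreed in size. The brighter one gave 760 in the normoglycemic and 1054 in the hyperglycemic mouse, a ratio of 1.39. The dimmer one gave 91.9 and 246, a ratio of 2.68. Both were higher in the hyperglycemic mouse as deposited, and their log2 ratios differed by 0.95, while 1 SD of such a difference between probe sets of a gene was 0.86 at signals of 64 to 256. With the dimmer probe set in its place, Fosl2 would pass 2-fold.

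Jun, the main partner of the Fos proteins, was also read by a pair of probe sets. Its brighter probe set had signals of 2616 in the normoglycemic and 3995 in the hyperglycemic mouse, a ratio of 1.53. The other gave 1774 and 1926, a ratio of 1.09, within 1 technical SD of equal signals. The log2 ratios of the pair differed by 0.49, against an SD of such differences of 0.31 at signals of 1024 to 4096. The size of the Jun difference therefore depended on the probe set, and both annotations name the same transcript record. Junb, a Jun relative that binds the same sites and can restrain Jun, had 1 probe set, with signals of 479 and 948. Its ratio of 1.98 lay just under the 2-fold limit, while that of Fos was 2.34.

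Atf3, which binds cAMP response elements and is induced by many stresses, had signals of 563 in the normoglycemic and 950 in the hyperglycemic mouse, a ratio of 1.69. Egr1, which is induced through serum response factor and its Elk partners, had 1036 and 1772, a ratio of 1.71. Ier3 had 1930 and 3496, a ratio of 1.81. These 3 ratios were close to each other and between 2.26 and 3.87 technical SDs above equal signals on the log2 scale. All 3 were above 1 under scaling on islet genes and below 1 under scaling on hybridization controls.

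Nr4a1 and Myc had the lowest ratios of the list. Nr4a1 had signals of 583 in the normoglycemic and 733 in the hyperglycemic mouse, a ratio of 1.26, at 0.985 technical SDs. Myc had 991 and 1265, a ratio of 1.28, at 1.59 technical SDs. As deposited both were higher in the hyperglycemic mouse, but under scaling on islet genes or on hybridization controls both ratios were below 1.

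From the highest to the lowest ratio the order was Fosb, Fos, Junb, Ier3, Egr1, Atf3, Jun, Fosl2, Myc and Nr4a1. Of the 9 pairs of neighbours in this order, 8 differed by less than 1 technical SD of their difference, by at most 0.24 on the log2 scale. The exception was Fosb over Fos, where the lower Fosb signal lay below its floor. Fos and Nr4a1, the ends of the order without Fosb, differed by 0.90, against a technical SD of 0.47. As deposited, 9 of the 10 genes had a log2 ratio of more than 1 technical SD and 7 of more than 2. The share of all measured genes past these limits was not computed, so the counts stand alone. Scaling on the hybridization controls put 7 of the 10 ratios below 1. These SD counts compare each ratio with the scatter between probe sets only.

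**Figure D3:**
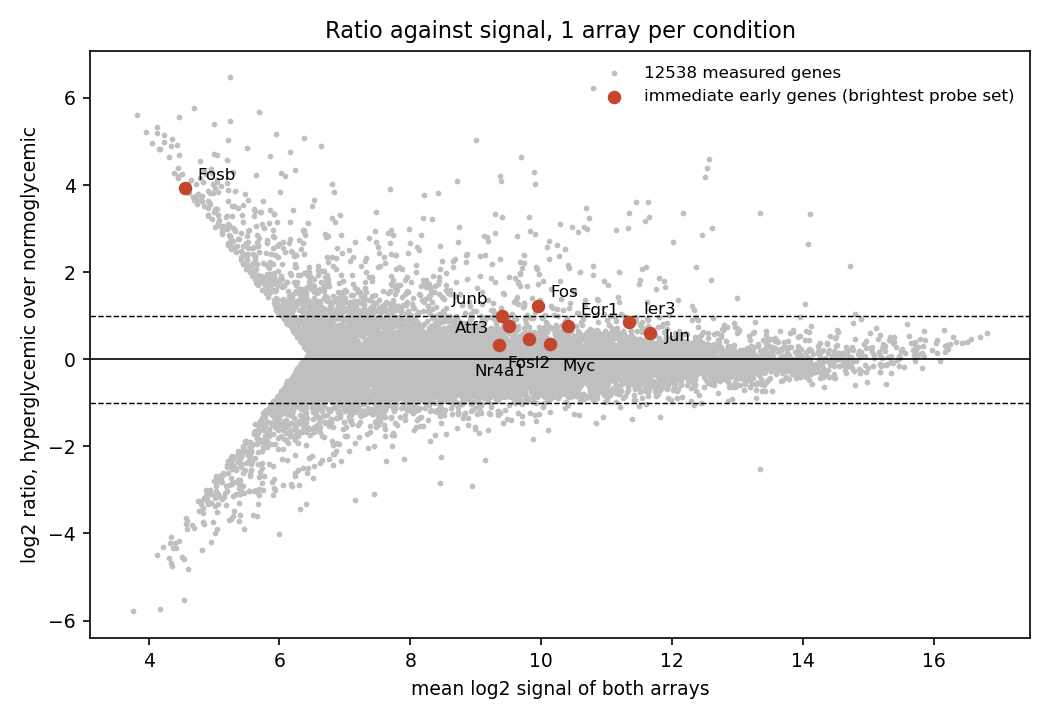
Log2 ratio of the hyperglycemic over the normoglycemic mouse against mean log2 signal for 12538 measured genes (grey) and the 10 immediate early genes (red), with dashed lines at 2-fold. As deposited all 10 lie above 0, Fosb among the widely scattered dim genes and the others at brighter signals (7 of 10 fall below 0 under scaling on hybridization controls).

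The other genes of these pathways were taken from 9 lists of 130 genes, of which 113 were measured. In these lists 17 of 113 were over 2-fold higher in the Akita graft and 0 over 2-fold lower, against 7.56% and 5.54% of all measured genes. The signals below are given as normoglycemic and then hyperglycemic mouse. List medians are of log2 ratios as deposited, and under scaling on the hybridization controls or on islet genes all 9 were below 0. With the hybridization controls, 3 of the 113 genes passed 2-fold upward and 31 downward, against 3.07% and 51.6% of all measured genes under that scaling. With islet genes the counts were 6 and 11, against 4.11% and 26.6%.

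Other immediate early transcription factors had a median log2 ratio of 0.50. Of 13 measured genes, 12 had a higher signal and 4 were over 2-fold higher, against 44.8% and 7.56% of all measured genes. Under scaling on the hybridization controls 0 were over 2-fold higher, against 3.07%. Klf2, a zinc finger factor of endothelium and leukocytes, had signals of 508 and 1962, a ratio of 3.86. Nfil3, a leucine zipper repressor, had 488 and 1205, a ratio of 2.47. Egr3, a relative of Egr1, had 118 and 258, and Csrnp1, a nuclear protein induced by axin, 220 and 449, at ratios of 2.19 and 2.04. Nr4a2 and Nr4a3, the relatives of Nr4a1, had ratios of 1.31 and 1.24, near that of Nr4a1 itself. Klf6, the brightest of this list, had 5024 and 5994, a ratio of 1.19. Egr2 was at 85.5, just above the floor, and 68.7, below it.

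Immediate early genes that encode other proteins had a median log2 ratio of 0.54 over 15 measured genes. Of these, 12 had a higher signal and 4 were over 2-fold higher, against 44.8% and 7.56% of all measured genes. With the arrays scaled on the hybridization controls 0 were over 2-fold higher, against 3.07%. Ptgs2, the inducible enzyme of prostaglandin synthesis, had signals of 172 and 545, a ratio of 3.17, and Plk2, a serine/threonine kinase, 232 and 651, a ratio of 2.81. Mcl1, a survival protein of the BCL2 family, had 7672 and 11090, a ratio of 1.45. Sgk1, a kinase induced by glucocorticoids and mineralocorticoids, went the other way, with 10292 and 5271, and Plk3 had 1197 and 1076.

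Feedback inhibitors, which are induced with the immediate early genes and limit kinase signalling or shorten the life of their RNAs, had a median log2 ratio of 0.31. Of 21 measured genes, 17 had a higher signal, against 44.8% of all measured genes. As deposited 3 were over 2-fold higher (2 with the floors) and 0 over 2-fold lower, against 7.56% (4.33%) and 5.54%. Scaling on the hybridization controls left 0 over 2-fold higher, against 3.07%. Zfp36 (tristetraprolin), which brings about the decay of RNAs rich in AU elements, had signals of 780 and 2022, a ratio of 2.59. Dusp4, a phosphatase of MAP kinases, had 159 and 336, a ratio of 2.11. Errfi1, an inhibitor of the EGF receptor, was bright and near equal at 21633 and 21102, and Trib1 and Spry2 had 262 and 208, and 844 and 788.

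The kinases and factors that lie upstream, which are mostly controlled by phosphorylation, were near equal. Of 15 measured genes, 0 were over 2-fold higher or lower, against 7.56% and 5.54% of all measured genes. A higher signal was seen for 8, against 44.8%, and the median log2 ratio was 0.02. Map2k6, a kinase that activates p38, had signals of 215 and 294, the highest ratio at 1.37, and Map2k2 had 2314 and 1612, the lowest at 0.697. Rps6ka3 (RSK2) had 1698 and 2021, and Mapk9 (JNK2) 1104 and 933. Mapk14, which encodes p38 alpha itself, had 3662 and 3269. Of the 23 genes listed, 16 had a probe set with that 1 symbol.

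In the wider AP-1 family most signals were lower or near equal as deposited. Of 11 measured relatives, 4 had a higher signal and 2 were over 2-fold higher, against 44.8% and 7.56% of all measured genes. The median log2 ratio was -0.02. Jdp2, a repressor that pairs with Jun proteins, had signals of 225 and 591, a ratio of 2.62. Batf, an AP-1 factor of lymphocytes and other leukocytes, had 36.1 and 191, at least 2.31-fold higher. Jund, the Jun relative that is expressed more constantly, had 2695 and 2478, and Atf7 and Batf2 had 120 and 87.6, and 133 and 103. The leucine zipper partners of the ATF and C/EBP families had a median log2 ratio of 0.11 over 9 measured genes and 0 over 2-fold in either direction. Cebpb, a factor of acute-phase and macrophage genes, had 7321 and 13174, a ratio of 1.80, and Cebpa 577 and 392. Atf5 had 432 and 592, and Cebpg 921 and 860.

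Genes known as targets of AP-1 had a median log2 ratio of 0.63, with 3 of 7 measured genes over 2-fold higher and 0 over 2-fold lower. Ccl2, a chemokine for monocytes, had signals of 217 and 1522, a ratio of 7.01, and Il6, an acute-phase cytokine, 498 and 2472, a ratio of 4.96. The study had picked Ccl2 on these arrays, so its direction is not independent evidence. Ccnd1 (cyclin D1) had 9799 and 6482, and Hmox1 (heme oxygenase) 1669 and 1816. Macrophages, whose markers were higher in the same graft, also express Ccl2 and Il6, and their part in these ratios was not tested.

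The Myc network and the known Myc targets had median log2 ratios near 0, at -0.0019 over 11 and 0.07 over 11 measured genes. Mycn, a relative of Myc, had signals of 59.2 and 131, at least 1.58-fold higher, and Mxd3, a Max partner, 165 and 289, whereas Mxi1, a repressor that pairs with Max, had 1822 and 1248. Mlxip (MondoA), a glucose-sensing factor of the same network, had 418 and 213, a ratio of 0.509, whereas Mlxipl (ChREBP), its glucose-sensing relative, had 2277 and 2639. Among the targets, Nop58, a protein of ribosomal RNA processing, had 628 and 1232, a ratio of 1.96, and Fbl (fibrillarin), of the same particles, 2876 and 2019. Nop56, a partner of Nop58, had 789 and 1080. Odc1, an enzyme of polyamine synthesis, had 26540 and 19734. Of the genes on both lists, 1 was over 2-fold higher, Mycn, and 0 with the floors, against 7.56% and 4.33% of all measured genes.

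**Figure D4:**
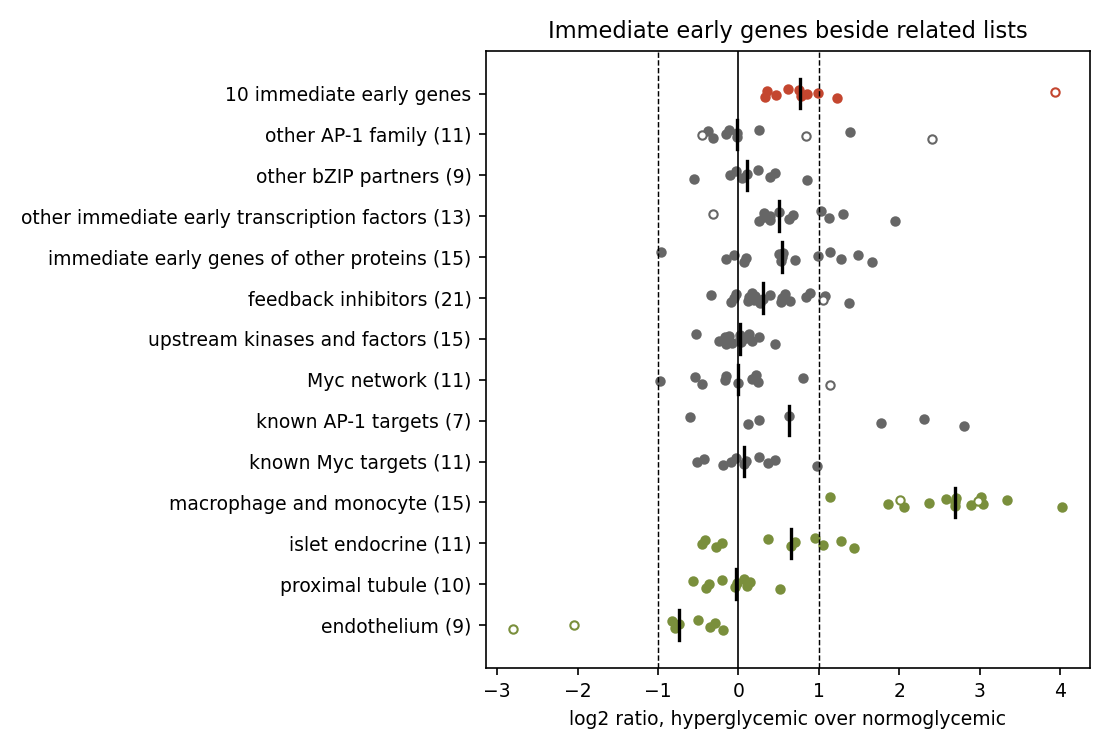
Log2 ratio of the Akita over the WT graft, with a point for each measured gene, for the 10 immediate early genes (red), 9 related lists (grey, number of measured genes in brackets) and 4 marker lists (green), with black bars at list medians and dashed lines at 2-fold. Open points have a signal under its array median. As deposited the medians are 0.76 for the 10 genes, 0.50 and 0.54 for other immediate early genes, -0.02 for other AP-1 genes and 2.69 for macrophage markers, and under scaling on hybridization controls only that of the macrophage markers among these stays above 0.

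**Figure D5:**
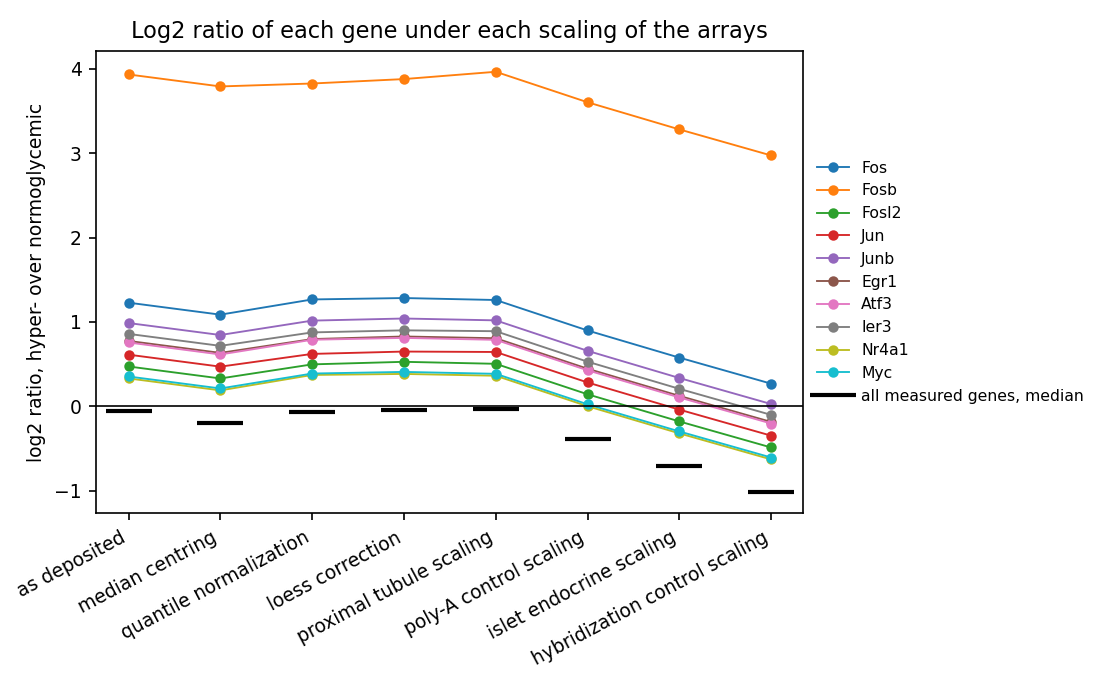
Log2 ratio of each of the 10 genes (colored lines) and the median of all measured genes (black bars) as deposited and under 7 scalings of the arrays. Scalings by 1 number per array move genes and bars alike by construction, and 7 of 10 genes fall below 0 under scaling on hybridization controls, 4 under islet endocrine scaling and 1, Nr4a1, under poly-A control scaling.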

How the data were processed

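Total RNA of 2 islet graft samples was measured on 1 MOE430 2.0 array each. The authors deposited 1 table of signal intensities on a linear scale, made with MAS5 per the submitters' processing notes, but its version and settings are not given in the sources used. Expression analysis by the authors used the Subio Platform, with no settings stated. Of 45037 probe sets other than 64 controls, 34945 carried 1 gene symbol in the platform annotation, and all 10 genes were matched to RefSeq (GRCm38.p6) by gene identifier with unchanged symbols. The 10 genes, the lists and the rules were chosen with earlier results of these data known. Named genes were all probe sets of the 10 genes, the 2 highest, the 2 lowest and the brightest of each related list, and the 2 brightest of each marker list. A planned comparison of protein sequences was not made. Egr3, Csrnp1, Nr4a2, Nr4a3, Ltf, Mpo and Pdx1 were named after their values had been seen. The fibroblast and distal nephron markers had median log2 ratios of -0.37 and -0.58. Technical spread was taken from the 2 brightest probe sets of 9010 genes. Precision was limited by the number of arrays, which was 1 for each condition. The alternatives were 7 scalings, 3 floors, an added constant, other probe set rules, filters and limits. Counts and the median, quantile and loess scalings were run on simulated data with less scatter than these arrays. The other scalings were not simulated. Python 3.11.15, numpy 2.4.6, pandas 2.3.3, statsmodels 0.14.6 (loess, span 0.3, 3 iterations) and matplotlib 3.10.9 were used.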

Additional observations from a re-analysis of the deposited data

How the results depend on the processing

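As deposited, 2 of the 10 genes were over 2-fold higher in the Akita graft and the median log2 ratio was 0.76. The count was 1 under scaling on hybridization controls, on islet endocrine genes and on poly-A controls (the last added after the values had been seen). The gene left was Fosb, whose WT signal lay below its floor, while Fos had log2 ratios of 0.27, 0.58 and 0.90. Fosb was also the gene left at a limit of 3-fold. Fos was the 1 gene left with floors at the median or the 75th percentile, and with both signals required at or above the medians. At a limit of 1.5-fold the count was 7. The median log2 ratio was -0.20 under scaling on hybridization controls and 0.11 under scaling on islet endocrine genes, because these divide the array of the hyperglycemic mouse by a larger number, and all measured genes moved with it. The count of genes over 2-fold higher was 3, with Junb added, under quantile normalization, loess correction and scaling on proximal tubule genes. No gene of the 10 was over 2-fold lower under the alternatives run. For single genes, 13 alternatives were run on each, and the lowest log2 ratio was -0.63 for Nr4a1 under scaling on hybridization controls. With a floor at the 75th percentile Fosb was at 0 and the other 9 genes were higher. No paired analysis was possible because each condition had 1 array, and for the same reason no replicate could be left out. MAS5 signals near the floor limit what can be said of Fosb.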
